A study of Mus musculus with 10 samples.

Results

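Id1, Id2, Id3 and Id4 form the inhibitor of DNA binding (inhibitor of differentiation) family, and their 4 entries were taken by gene symbol from a table of 25152 entries that stand for 20044 genes. Each member had 1 entry. The members were chosen by family, and the family was picked on the late H3K27me3 of Id2, so the H3K27me3 of Id2 is given as a description and supports nothing. The table holds ChIP-Seq values for H3K4me2, a histone modification of active and poised promoters, and for H3K27me3, the repressive modification set by Polycomb complexes. The mice were wild type (C57BL/6j), and retinas were taken before birth (E17.5) and on postnatal days 1, 7 and 15 (PN1, PN7, PN15), which gave 1 library per mark and stage. No transgene or treatment was involved. The labels name the rd1/rd1 strain (a Pde6b mutant without lasting rods) for every library and write the embryonic stage as E17, whereas the study's text gives wild type animals and E17.5 for these stages, which was followed. A library stands for a pool of at least 20 retinas, and no stage has a second library, so a difference between stages has no replicate check and no p-value is given.

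Id proteins have a helix-loop-helix domain but lack the basic region through which other members of that superfamily hold DNA. They pair with E proteins, and the E proteins are then not free to form DNA-binding dimers with tissue-specific basic helix-loop-helix (bHLH) factors such as those of neurons. Id genes are well-known targets of bone morphogenetic protein (BMP) signalling through Smad proteins, and in the retina they are known from progenitor cells and Müller glia.

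The values are normalized occupancies, which are reads within 2.5 kb on either side of a transcription start site (TSS) scaled by library size and given as whole numbers. Their sum over the table was between 590366 and 1200594. In 5 of the 8 libraries the value of 1 read could be read from the spacing of the whole numbers (0.313 to 0.946), and in the other 3 a unit was taken as 1 read, which is the fewest that the values allow. The intervals below are exact Poisson 95% intervals from these reads, they cover counting error only, and 3 reads corresponded to an occupancy between 0.938 and 3. The H3K4me2 library of PN7 stood apart, since 19.5% of its entries were at 0 against 0.362% to 2.52% in the other H3K4me2 libraries, while its median over genes (24) was near that of PN1 (27) and below those of E17.5 (41) and PN15 (42). The H3K27me3 library of PN7 also had more entries at 0 (3.70%) than the other H3K27me3 libraries (0.0755% to 0.159%), with a median of 9 against 10 or 11. The H3K27me3 values of PN7 below, such as that of Id2, rest on that library. The tissue label was checked against marker genes, and the rod list (Sag, Nrl, Crx, Pde6b, Gnat1) had H3K4me2 sums of 85, 93, 90 and 527 over the 4 stages from E17.5 to PN15, with all 5 genes more than 2-fold higher at PN15 than at E17.5. The blood and liver list, which retina should lack, summed to between 14 and 35. In whole retina, a larger share of cells with a mark and more mark per cell cannot be told apart.

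The 4 genes lie on different chromosomes of mm9. Id1 is at chr2:152561987-152563146 (plus strand, 2 exons), Id2 at chr12:25778666-25780957 (minus strand, 3 exons), Id3 at chr4:135699412-135701670 (plus strand, 3 exons) and Id4 at chr13:48356796-48359405 (plus strand, 3 exons). Within 2.5 kb of their TSS the annotation has 1 other gene with a start, the lincRNA A330033J07Rik, which has starts at 965 and 1507 bp from the TSS of Id4, so the occupancy of Id4 includes reads around those starts. Promoter sequences were matched by symbol for 3 of the 4 genes in the RefSeq set for GRCm38.p6, and each had a single exact match in mm9. They are shown because both marks were measured around these starts and because Polycomb in vertebrates is known to favour CpG-rich promoters. They run 5′ to 3′ on the gene's own strand and end shortly after the TSS, with each CpG in capitals, at chr12:25780908-25781207 for Id2, chr4:135699487-135699786 for Id3 and chr13:48356235-48356534 for Id4.
Id2: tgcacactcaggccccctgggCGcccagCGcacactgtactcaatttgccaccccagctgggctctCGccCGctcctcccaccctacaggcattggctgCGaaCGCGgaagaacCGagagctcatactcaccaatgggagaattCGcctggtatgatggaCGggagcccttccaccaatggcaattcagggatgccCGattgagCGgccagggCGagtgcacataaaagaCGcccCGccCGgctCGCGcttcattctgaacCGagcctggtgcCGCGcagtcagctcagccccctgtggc
Id3: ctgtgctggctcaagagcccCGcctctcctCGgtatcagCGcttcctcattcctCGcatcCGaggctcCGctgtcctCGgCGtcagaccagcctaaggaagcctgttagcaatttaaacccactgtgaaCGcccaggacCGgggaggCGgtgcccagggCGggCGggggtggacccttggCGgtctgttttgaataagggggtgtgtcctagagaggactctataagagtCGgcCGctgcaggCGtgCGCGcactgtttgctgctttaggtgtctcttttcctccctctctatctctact
Id4: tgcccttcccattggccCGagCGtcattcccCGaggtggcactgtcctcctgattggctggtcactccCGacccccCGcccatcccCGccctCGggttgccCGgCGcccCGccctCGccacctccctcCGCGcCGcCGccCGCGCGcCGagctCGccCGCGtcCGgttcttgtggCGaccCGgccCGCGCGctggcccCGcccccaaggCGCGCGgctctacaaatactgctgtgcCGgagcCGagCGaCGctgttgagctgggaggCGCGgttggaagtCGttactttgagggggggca
The Id4 promoter held 39 CpG dinucleotides at 73.3% GC, the Id2 promoter 21 at 63.3% and the Id3 promoter 19 at 60%, whereas the median of all 27025 RefSeq promoters was 7 CpG at 52.7% GC. By CpG number Id4 stood at percentile 96.0 of all promoters, Id2 at 75.8 and Id3 at 72.4. The motif CCAAT, searched on both strands, occurred 3 times in the Id2 promoter, 2 times in that of Id4 and 0 times in that of Id3, and 37.9% of all promoters hold it. The E-box CANNTG, the letters that E proteins bind, occurred 1 time in the Id2 promoter and 0 times in those of Id3 and Id4, against 72.1% of promoters with at least 1. GGCGCC occurred 1 time each in the Id2 and Id4 promoters and 0 times in that of Id3 (12.0% of promoters), and TATAAA on either strand in none of the 3 (14.2% of promoters). These are letter matches within the windows shown.

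Between E17.5 and PN15 the H3K27me3 occupancy of Id1, Id2 and Id4 was more than 4-fold higher, and that of Id3 was 1.61-fold higher, while H3K4me2 was lower at Id1, Id2 and Id3 and close to its embryonic value at Id4. Id2 had the most H3K27me3 of the family from PN7 onwards and kept H3K4me2 well above the median gene. Id3 had the most H3K27me3 before PN7 and had the lowest share of its embryonic H3K4me2 at PN15. Id4 had the least H3K27me3 of the family at all 4 stages. No control library was used here, so the part of background in the low embryonic values of Id1 (9) and Id4 (5) was not tested, and with a pseudocount of 5 the log2 changes of Id1, Id2 and Id4 were 1.68, 2.47 and 1.49. Folds are ratios of the deposited occupancies, whereas changes called 2-fold were counted on the log2(occupancy + 1) scale.

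**Figure D1:**
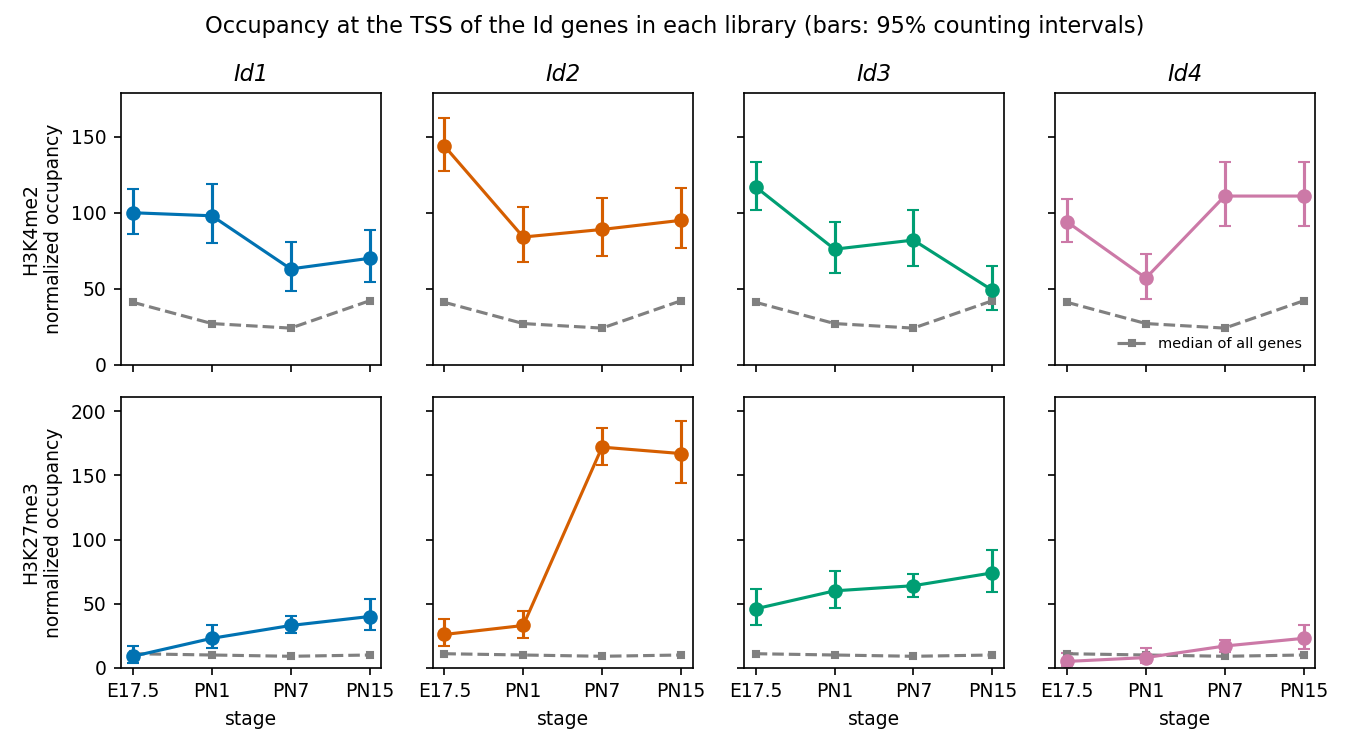
Normalized occupancy (y axis, from 0) of H3K4me2 (top) and H3K27me3 (bottom) at the TSS of the 4 Id genes by stage (x axis); points are single libraries, bars are 95% counting intervals and the dashed grey line is the median of all genes. The H3K27me3 of Id2 goes from 26 at E17.5 to 172 at PN7 and 167 at PN15, and the H3K4me2 of Id3 ends at 49, near the median of 42.

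Id2, which can also bind the retinoblastoma protein, had 26 (E17.5), 33 (PN1), 172 (PN7) and 167 (PN15) as its H3K27me3 occupancies. The values fall into a low pair before PN7 and a high pair from PN7, with counting intervals of 17 to 38.1 and 23.4 to 44.6 in the first pair and of 158 to 187 and 144 to 192 in the second. The step from PN1 to PN7 was 5.21-fold (counting interval 3.8 to 7.42) and lay at percentile 99.7 of the changes of all genes, and the step from PN7 to PN15 was 0.971-fold (0.818 to 1.15). From E17.5 to PN15 the ratio was 6.42 (4.24 to 10.1), and 114 other genes had at least the log2 change of 2.64 seen at Id2. At PN15 the occupancy of Id2 was exceeded or equalled by 328 other genes, and 4 of these also had at least its change since E17.5. They were Pax6 (4, 15, 113 and 178 over the 4 stages) and Sox2 (26, 75, 112 and 182), transcription factors of retinal progenitors, Igf2bp1 (16, 32, 146 and 236), which encodes an mRNA-binding protein, and Rbm9 (24, 48, 238 and 169), which encodes a splicing factor. The H3K4me2 occupancies of Id2 were 144, 84, 89 and 95 over the same stages. The embryonic value stood apart, with an interval of 127 to 162 against 67.6 to 116 over the 3 postnatal stages, although the log2 change of the median gene from E17.5 to PN1 was itself -0.42 and that of Id2 went from -0.77 to -0.17 when the libraries were rescaled to the same median. The ratio of PN15 to E17.5 was 0.660 (0.516 to 0.836).

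Id1 had H3K27me3 occupancies of 9, 23, 33 and 40 over the 4 stages. The first value was the low one, and the occupancy went from just under the median gene (11) at E17.5 to percentile 85.8 at PN15. The ratio of PN15 to E17.5 was 4.44 (2.16 to 10.4), a log2 change of 2.04 at percentile 98.5 of all genes, and its largest step was from E17.5 to PN1 (2.56-fold, 1.17 to 6.14). The later steps, 1.43-fold (0.944 to 2.27) and 1.21-fold (0.838 to 1.73), were within counting error. Its H3K4me2 occupancies were 100, 98, 63 and 70. As deposited they form a higher pair up to PN1 and a lower pair from PN7, but with rescaled libraries the log2 changes of the 3 steps were 0.57, -0.46 and -0.65 and no pairs remained. As deposited the ratio of PN15 to E17.5 was 0.7 (0.523 to 0.925).

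Id3 had H3K27me3 occupancies of 46, 60, 64 and 74 over the same stages, the highest of the family at E17.5 and PN1 and next to Id2 afterwards. The ratio of PN15 to E17.5 was 1.61 (1.11 to 2.36), so the change was smaller than at the other 3 members and within 2-fold. Its H3K4me2 occupancies were 117, 76, 82 and 49. The first and the last value differed by more than counting error, with intervals of 102 to 133 and 36.3 to 64.8 and a ratio of 0.419 (0.301 to 0.574). In rank among all genes the H3K4me2 of Id3 went from percentile 99.1 at E17.5 and 95.9 at PN7 to 54.2 at PN15, while Id1, Id2 and Id4 were at 69.4, 85.7 and 92.1 at PN15.

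Id4 had H3K27me3 occupancies of 5, 8, 17 and 23, the lowest of the family in every library. It lay under the median gene at E17.5 and PN1 (medians 11 and 10) and above it at PN7 and PN15 (9 and 10). The ratio of PN15 to E17.5 was 4.60, with a wide counting interval of 1.71 to 15.1. That interval takes the embryonic value as 5 reads, the fewest it allows, because the value of 1 read was not found in that library. Its H3K4me2 occupancies were 94, 57, 111 and 111. The value at PN1 was the low one, but with rescaled libraries the step from E17.5 to PN1 was small (log2 change -0.12 against -0.71), while the step from PN1 to PN7 (1.95-fold, 1.42 to 2.72) went from 0.95 to 1.12 and so past 2-fold. As deposited PN15 over E17.5 gave 1.18 (0.920 to 1.5), an interval that includes equal values.

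**Figure D2:**
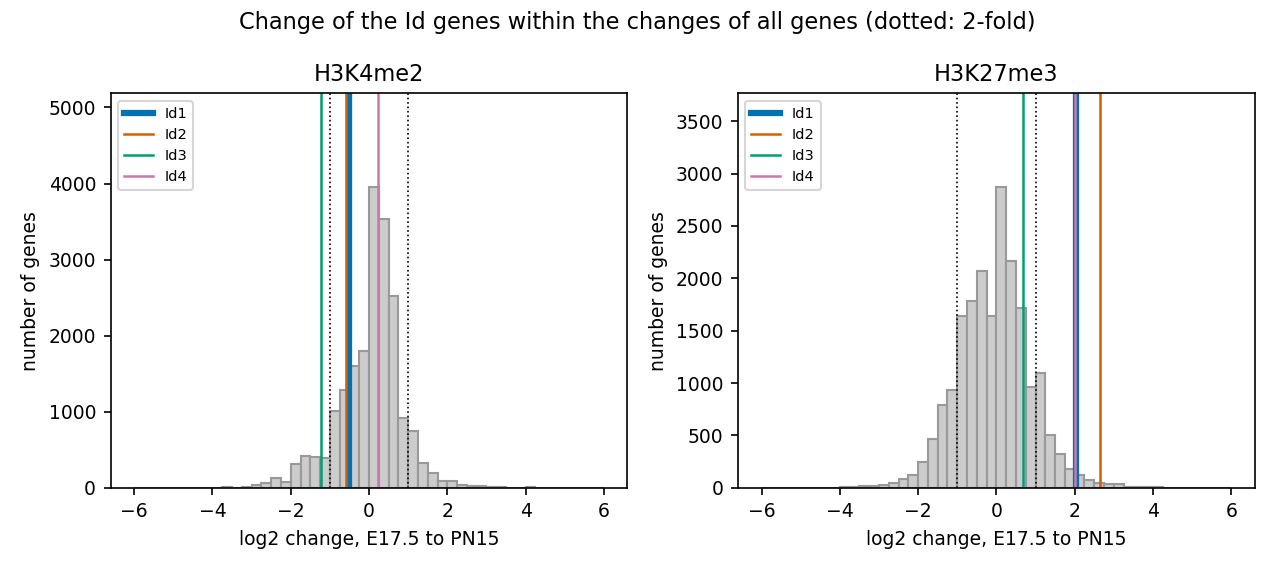
Number of genes (y axis) by log2 change in normalized occupancy from E17.5 to PN15 (x axis, pseudocount 1) for H3K4me2 (left) and H3K27me3 (right), with the 4 Id genes as coloured lines and 2-fold limits dotted. In H3K27me3 Id2 (2.64), Id1 (2.04) and Id4 (2.00, drawn over Id1) lie in the right tail and Id3 at 0.67; in H3K4me2 Id3 (-1.24) is the one member past 2-fold.

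Counted over the family, 3 of 4 members were at least 2-fold higher in H3K27me3 at PN15 than at E17.5 and 0 were lower, against 12.2% of all 20044 genes higher and 16.1% lower, and the median log2 change was 2.02 against 0 over all genes. Without Id2, whose change picked the family, it was 2 of 3 members with a median of 2.00. With so few members these counts describe the genes and are no test of the family. In H3K4me2 over the same stages 0 members were 2-fold higher and 1 (Id3) was lower, where 7.84% and 11.7% of all genes were, and the median log2 change was -0.55 against 0.13. From PN7 to PN15 no member passed 2-fold in either mark. In H3K27me3 the background was 15% of genes higher and 9.7% lower, with a member median of 0.24. In H3K4me2 52.3% of genes were 2-fold higher at PN15 than at PN7 and 2.06% lower, with a median log2 change of 1, in the comparison that rests on the PN7 library described above. The members' values in that comparison (1.11-fold for Id1, 1.07-fold for Id2, 0.598-fold for Id3 and equal values for Id4) were thus below that of the median gene. When all libraries were rescaled to the same median, the log2 changes in this step turned negative for Id1 (-0.65), Id2 (-0.71) and Id4 (-0.80), and Id3 was then 2-fold lower (-1.53), as 9.41% of all genes were, with 23.7% higher.

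The order of the members in H3K4me2 was resolved in part, since at each stage the counting intervals of neighbours in the order overlapped, while some members farther apart in it did not. At E17.5 Id2 (127 to 162) lay apart from Id1 (86.3 to 116) and Id4 (80.8 to 109), and at PN1 Id1 (80.4 to 119) from Id4 (43.3 to 73.1). At PN7 Id4 (91.3 to 134) lay apart from Id1 (48.4 to 80.6), and at PN15 Id4 (91.3 to 134) from Id1 (54.6 to 88.4) and Id3 (36.3 to 64.8), and Id2 (76.9 to 116) from Id3. Id2 was highest at E17.5, Id1 at PN1 and Id4 at PN7 and PN15. In H3K27me3 the order at E17.5 was Id3, Id2, Id1 and Id4, again with overlapping neighbours. At PN7 it was Id2, Id3, Id1 and Id4 with all neighbouring intervals apart, and at PN15 the order was the same with only Id1 and Id4 overlapping. At PN15 the H3K27me3 occupancies of the 3 members other than Id2 ran from 23 to 74. Over the 8 libraries the closest members, by Euclidean distance of log2(occupancy + 1), were Id1 and Id4 (2.38) and Id2 and Id3 (2.39), and the farthest were Id2 and Id4 (5.27).

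The marks were also read together at each gene. The ratio of H3K27me3 to H3K4me2 occupancy of Id2 was 0.181, 0.393, 1.93 and 1.76 over the 4 stages, and that of Id3 was 0.393, 0.789, 0.780 and 1.51. Those of Id1 and Id4 ran from 0.09 to 0.571 and from 0.0532 to 0.207. The ratio compares different antibodies, so its level has no meaning of its own, and its value at PN7 rests on the H3K4me2 library that stood apart, so no direction from PN7 to PN15 is read. At PN15 2 other genes, Kpna1 and Sfi1, had at least as much of both marks as Id2, and their H3K27me3 at E17.5 was already 430 and 349. At the earlier stages this number for Id2 was 3 at E17.5, 16 at PN1 and 44 at PN7, so few genes matched it in both marks at E17.5 as well. At E17.5 20 genes had more H3K4me2 than Id2 and 4124 had more H3K27me3, so its H3K4me2 alone left few genes. At PN15 2821 genes had more H3K4me2 and 325 had more H3K27me3, the mark on which the family was picked. The number of other genes with at least as much of both marks was 261, 8, 595 and 230 over the 4 stages for Id1. It was 19, 25, 182 and 222 for Id3 and 783, 912, 172 and 104 for Id4. Whether both marks were on the same cells cannot be told from whole retina.

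**Figure D3:**
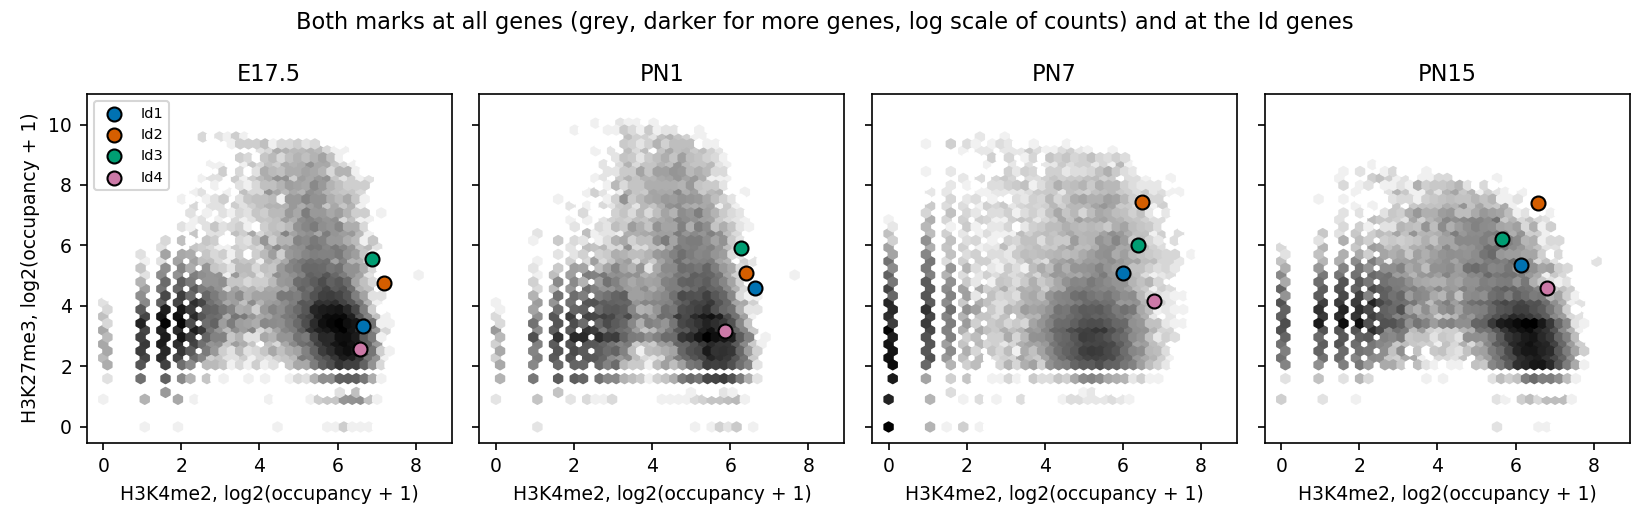
H3K27me3 (y axis) against H3K4me2 (x axis) as log2(normalized occupancy + 1) at the 4 stages, with all genes as grey hexagons (darker for more genes) and the 4 Id genes as coloured points. Id2 moves from below Id3 at E17.5 to the upper right edge of the cloud at PN7 and PN15, and Id4 stays at the bottom of the family.

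Genes with the most similar profile over the 8 libraries were taken by the same distance among 15634 genes with an occupancy of at least 20 in at least 1 library. Nearest to Id2 were Camk2n2 (1.30), Odz4 (1.39), Gfra1 (1.39), Lmo4 (1.63) and Epha4 (1.63). Their likeness to Id2 in H3K27me3 follows from the choice, for example in Camk2n2, which encodes an inhibitor of CaM kinase II, with 40, 54, 155 and 136, and Lmo4, which encodes a LIM-only transcriptional regulator, with 20, 29, 97 and 67. Nearest to Id1 were Prkch (0.953), Smad3 (1.08), Cdh20 (1.12), Mgat4b (1.15) and Setbp1 (1.21). Nearest to Id3 were Sox8 (0.672), Loxl2 (0.725), Rasd1 (0.731), Gad2 (0.738) and Kcnj3 (0.805). Nearest to Id4 were Ptprg (0.730), Six3 (0.780), Ephb2 (0.788), Fmn2 (0.862) and Tle4 (0.899), among them the eye-field homeobox gene Six3, whose H3K27me3 was 3, 10, 16 and 22 beside H3K4me2 values of 116, 64, 103 and 96. With Pearson correlation in place of distance, 0, 0, 0 and 1 of the 5 genes of Id1, Id2, Id3 and Id4 were found again (Ptprg for Id4), so these names depend on the measure.

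The partners and targets of the family were described by 8 lists with 63 genes in all, by the change from E17.5 to PN15. Over these 63 genes 7 were 2-fold higher in H3K27me3 and 20 lower, with a median log2 change of -0.57 where all genes had 0, and 0 were higher and 9 lower in H3K4me2. All genes had 12.2% higher and 16.1% lower in H3K27me3 and 7.84% and 11.7% in H3K4me2, and the counts of the lists below are descriptions beside these shares, with no test. Some lists began far above the median gene in H3K27me3 at E17.5 (11), with medians of 315 for neural bHLH factors and 232.5 for BMP ligands. High H3K27me3 values were lower at PN15 over the whole table, where the 90% quantile over genes went from 72 to 57 and the highest value from 809 to 416. The part that this had in the counts of the lists was not tested. Of the E proteins, the direct partners of Id proteins, Tcf3 had 7, 18, 9 and 9 in H3K27me3 over the 4 stages, beside 70, 45, 38 and 75 in H3K4me2. Tcf12 had H3K27me3 of 13, 14, 12 and 7. Tcf4 had 1, 3, 2 and 7 with H3K4me2 of 106, 83, 37 and 107. Its 2-fold call in H3K27me3 rests on an embryonic value of 1, which is under 3 reads if a unit is 1 read, as was assumed for that library, so no fold is given.

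**Figure D4:**
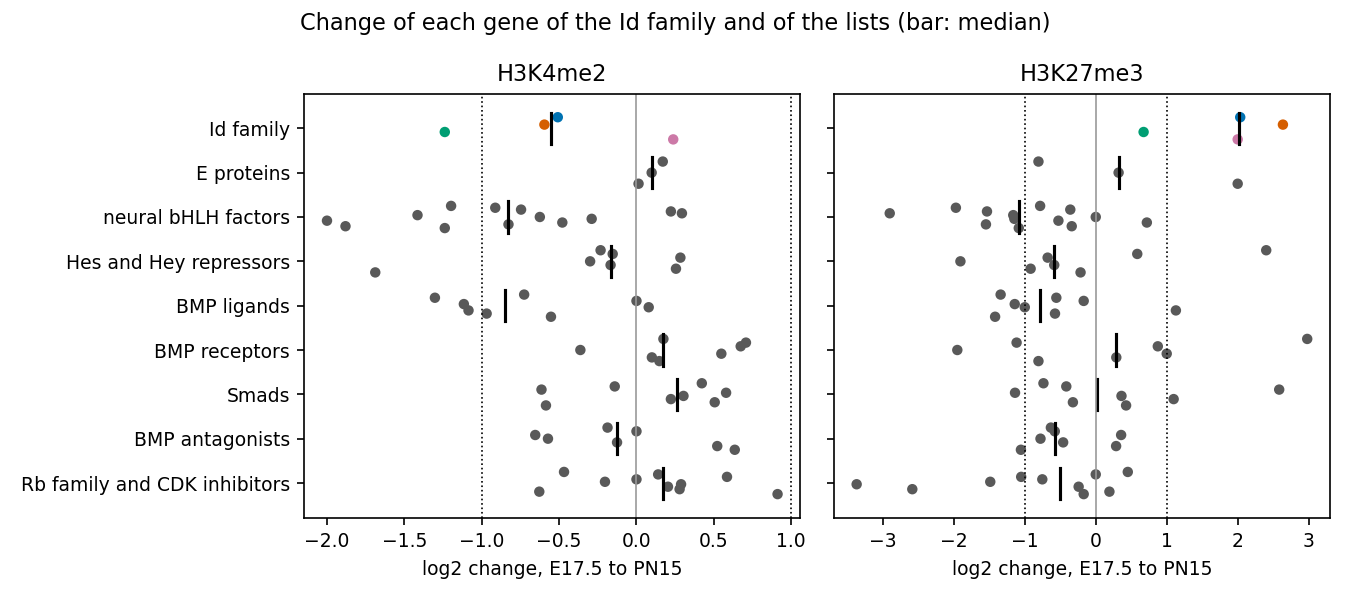
Log2 change in normalized occupancy from E17.5 to PN15 (x axis, pseudocount 1) of each gene in the Id family and in 8 lists of related genes (rows), for H3K4me2 (left) and H3K27me3 (right); black bars are list medians and dotted lines mark 2-fold. In H3K27me3 Id1, Id3 and Id4 lie at 2.04, 0.67 and 2.00, and the medians of neural bHLH factors and BMP ligands at -1.08 and -0.79.

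Among the 13 neural bHLH factors counted, whose E protein partners Id proteins sequester, 0 were 2-fold higher and 7 were lower in H3K27me3 and 5 were lower in H3K4me2. Neurod1, which acts in photoreceptors, had H3K27me3 values of 186, 230, 58 and 24, and Atoh7, which acts in the forming ganglion cells, had 97, 120, 66 and 24. Among 7 Hes and Hey repressors, effectors of Notch signalling in large part, 1 was higher and 1 lower in H3K27me3, and 1 was lower in H3K4me2 (Heyl, 57, 52, 22 and 17). Hes1, which holds progenitors undifferentiated, had 13, 27, 44 and 73, and Hes7 had 29, 34, 24 and 7.

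Of 8 BMP ligands 1 was higher and 4 were lower in H3K27me3, and 3 were lower in H3K4me2. All but Bmp5 and Gdf11 had more H3K27me3 than any Id gene at E17.5, such as Gdf7 with 603, 717, 534 and 225 and Bmp2 with 275, 348, 245 and 108. Of 7 BMP receptor genes 2 were higher and 2 lower in H3K27me3, but 1 call in each direction lay within counting error (Bmpr1a, 3 at E17.5 and 7 at PN15, fold interval 0.558 to 13.6, and Acvr2a, 12 and 5, 0.134 to 1.26). The type I receptor gene Acvr1 had 8, 9, 52 and 70, a low pair before PN7 and a high pair from PN7 like that of Id2, whereas Acvrl1, an endothelial type I receptor, had 258, 302, 145 and 66. Of 8 Smads, which carry the signal to the nucleus, 2 were higher in H3K27me3 and 1 was lower, the latter (Smad4, 10 at E17.5 and 4 at PN15) within counting error (fold interval 0.117 to 1.40). Smad3, which serves TGF-beta and activin, had 8, 23, 48 and 53, and the inhibitory Smad6 had 49, 84, 61 and 106. The BMP antagonists had 0 of 7 higher in H3K27me3 and 1 lower (Smurf1, an E3 ligase that removes Smads, with 26, 32, 17 and 12). Of 10 Rb family and CDK inhibitor genes 0 were higher and 4 lower in that mark, among them the CDK inhibitor gene Cdkn2c with 61, 61, 20 and 5. Another was Rb1 with 11, 7, 8 and 1, whose PN15 value was under that of 3 reads (2.62). No gene of the BMP receptor, Smad, BMP antagonist or Rb and CDK inhibitor lists was past 2-fold in H3K4me2.

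Marker genes of cells in which Id genes are known were read beside these values. Of 5 Müller glia markers 2 were 2-fold higher in H3K27me3 at PN15 than at E17.5 and 1 lower, where 12.2% and 16.1% of all genes were. The lower one was Glul, with low values of 13 at E17.5 and 5 at PN15 beside medians of 11 and 10 over all genes. The summed H3K27me3 of the 5 markers was 71, 61, 107 and 208 over the 4 stages, and their summed H3K4me2 was 316, 239, 213 and 259. Rlbp1 held most of this H3K27me3 at PN7 and PN15 (8, 11, 55 and 136 over the 4 stages), and its H3K4me2 was 37, 26, 9 and 6. Of 5 endothelial markers none was past 2-fold in H3K27me3, and their summed occupancy of that mark was between 67 and 82. Their H3K4me2 sums were 144, 118, 62 and 83, most of it from Kdr (112, 84, 55 and 70), with at most 9 at Pecam1, Tek and Tie1. The retinal pigment epithelium list summed to between 56 and 87 in H3K4me2. The H3K4me2 sums of the rod list over the 4 stages are given above. The part that cell makeup had in the values of the Id genes was not tested. The widely expressed genes Actb and Gapdh had H3K27me3 of 8, 7, 3 and 6 and of 2, 4, 3 and 3.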

How the data were processed

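H3K4me2 and H3K27me3 ChIP-Seq was performed on pooled retinas at 4 stages. The authors mapped reads with Bowtie 0.12.4 to mm9, dropped reads with several positions, and summed read midpoints in a window of 2.5 kb on either side of the RefSeq TSS. As deposited the values are scores: the authors divided the sums by library size (total mapped reads) and rounded the quotients. No count model was used on them. Of 10 samples, 8 have a column. The rd1/rd1 library of a later age and the anti-GFP control were not analysed here, so no background was subtracted. In the column name of H3K27me3 at PN7 a letter b follows the mark. Antibody catalogue numbers are exchanged between labels and the study's text, and the mark was taken from the sample title.

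Symbols were compared without case and without a trailing number. A gene with several entries (3225 genes) took the values of its entry with the highest total, and 25 entries whose symbol had become a date were left as they are. Changes are log2 ratios with a pseudocount of 1, called at 2-fold (log2 of at least 1 or at most -1) without a filter on low values. With 1 library per group there is no test. Percentiles are over 20044 genes. Poisson intervals and the conditional exact intervals of folds have a 95% level. The recovery of the value of 1 read was tested on data simulated from the H3K4me2 occupancies of E17.5, where 7 of 9 known values were recovered and 2 were not called. The 2 were 1 read a unit and a very deep library, which the method was not built to call. These counts are thus no success rate, and a library without a value can be deep.

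Genes were named by a rule: the 4 members, the 5 nearest genes of each, the E proteins, at most 4 genes past 2-fold per list, and Actb and Gapdh; not all are printed. Pax6, Sox2, Igf2bp1, Rbm9, Kpna1, Sfi1 and the marker genes given with values were named after their values were seen. The members and lists were chosen with earlier results of these data known. Of 87 list and marker genes 87 were in the table, 1 by a synonym (Pmel), and some genes first placed on these lists are not reported here or counted in them. Coordinates come from the mm9 annotation. Alternatives were rescaling of all libraries to 1 median, a pseudocount of 5, averaging a gene's entries, a minimum of 10 in either library, and Pearson correlation for likeness. Scripts ran in Python 3.11.15 (scipy 1.17.1, pandas 2.3.3, numpy 2.4.6, matplotlib 3.10.9).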

Additional observations from a re-analysis of the deposited data

How the results depend on the processing

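The counts of Id genes past 2-fold were the same under all 4 alternatives (pseudocount of 5, rescaling to 1 median, mean over entries, minimum of 10; the last 2 could not change them, since each member has 1 entry and passes the minimum) in H3K27me3 (E17.5 to PN15 and PN7 to PN15) and, from E17.5 to PN15, in H3K4me2. From PN7 to PN15 in H3K4me2 1 member (Id3) was 2-fold lower after rescaling, against 0 as deposited (9.41% and 2.06% of all genes). Of the 32 member changes, 0 changed sign and 1 crossed 2-fold with a pseudocount of 5 (Id4 in H3K27me3 from PN1 to PN7, a log2 change of 0.76 against 1); with rescaling 3 changed sign (Id1 from E17.5 to PN1, Id1 and Id2 from PN7 to PN15, all in H3K4me2) and 2 crossed it (Id4 from PN1 to PN7 and Id3 from PN7 to PN15, both in H3K4me2). No paired analysis was possible because each mark and stage has 1 library and the labels give no replicate numbers, and for the same reason no replicate could be left out. The H3K27me3 values of Id4 (5 at E17.5 and 8 at PN1) and Id1 (9 at E17.5) were low. The depth behind the E17.5 values is not known, since a unit was taken as 1 read in that library.

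Counts over all genes moved by more than 1.5 times in the cases below, and the cause was not tested beyond the construction of each alternative. With a pseudocount of 5, H3K4me2 from E17.5 to PN15 had 640 genes higher and 953 lower (1572 and 2347 as reported), from PN7 to PN15 6158 and 171 (10489 and 412), and H3K27me3 had 1092 and 1919 (2436 and 3227) and 1417 and 1077 (3005 and 1945). With the minimum of 10 fewer genes were tested. H3K4me2 then had 740 higher and 1155 lower of 14377 (5.15% and 8.03%), and 5838 and 266 of 13854 from PN7 to PN15 (42.1% and 1.92%). H3K27me3 had 1979 higher of 12953 from PN7 to PN15 (15.3%), so that share hardly moved. After rescaling, H3K4me2 from PN7 to PN15 had 4755 higher and 1887 lower.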
